A study of Rattus norvegicus with 28 samples.

Results

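The comparison set 4 libraries of rat prefrontal cortex taken 24 h after psilocybin at 3 mg/kg against 4 taken 24 h after psilocybin at 1 mg/kg. These are 8 of the 28 libraries of the study, and they were chosen by the treatment named in their labels. RNA carrying a poly-A tail was sequenced from adult male Sprague-Dawley rats, an outbred stock, which were 8 weeks old when they arrived. All 8 animals had the same first injection, the vehicle of ketanserin (Tween-80 at 5%), and then psilocybin in saline at 1 or 3 mg/kg, both given into the peritoneum. The labels call the 4 libraries of a group biological replicates and do not number them, so replicate numbers here only name libraries. For reference, the 4 vehicle animals had Tween-80 and then saline. Ketanserin alone was given at 1 or 3 mg/kg before saline, and the combined groups had both drugs, each at 1 mg/kg in 4 animals and each at 3 mg/kg in another 4; every group had 4 animals. In the combined groups the ketanserin dose therefore moved together with the psilocybin dose.

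Psilocybin loses its phosphate after uptake to become psilocin, which activates several serotonin receptors, and the receptor encoded by Htr2a is the one that its acute behavioural effects are known to need. Ketanserin blocks that receptor and, less strongly, the one encoded by Htr2c. In prefrontal cortex Htr2a is found mainly on pyramidal neurons, with high levels on the dendrites of deep layer cells, and on some interneurons. Genes switched on by neuronal firing, the immediate early genes, are known to peak within hours of a stimulus, and 24 h is a time at which slower adjustments of synapses, axons and glia are usually studied. The comparison asks whether the cortex differs at that time between a lower and a higher dose.

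Total counts in the 8 libraries were 13903996 to 17453274, and the mitochondrial genome took 7.84 to 11.7% of them. Replicate 1 at 3 mg/kg and replicate 2 at 1 mg/kg had the highest of these shares and lay apart from the rest on the first component of the 8 libraries, which carried 32.1% of the variance and did not separate the doses. On the second component, with 14.8%, the doses did not overlap. Libraries at 1 mg/kg ran from -32.1 to -3.33 and those at 3 mg/kg from -2.36 to 30.1, a narrow gap. No pair of libraries agreed within sampling noise, since the chi-square per gene between them was 8.23 to 68.0. Markers of cortical projection neurons were present in all 8, with Fezf2, which specifies subcortical projection neurons, at 63.3 to 88.1 CPM (counts scaled to a common library size) in the lower and 71.3 to 90.2 CPM in the higher dose group. Markers of choroid plexus and ependyma were low, with sums of 7.92 to 25.0 and 9.31 to 13.4 CPM. The astrocyte markers summed to 6739 to 7400.0 CPM in the lower dose group and 6356 to 7494 CPM in the higher.

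Between the doses no feature of the 17404 tested reached an adjusted p under 0.05 in edgeR's quasi-likelihood test, which is 0% of them. At an unadjusted p under 0.05, 270 features (1.55%) were higher and 294 (1.69%) were lower at 3 mg/kg. In 237 features (1.36%) every library at 3 mg/kg lay above every library at 1 mg/kg, and in 217 (1.25%) every one lay below. The smallest adjusted p was 0.109, reached by Palmd, which was higher at 3 mg/kg, and by Syt12, which was lower. DESeq2 on the same counts called 4 genes: Palmd higher (adjusted p = 0.00157), and Syt12 (0.00205), Nefl (0.00738) and Mrpl36 (0.0185) lower. Leaving out replicate 1 at 1 mg/kg in edgeR also gave 4 called features, which were Nefl, Calb1, C1ql2 and 1 with no gene name. The genes that follow are therefore described by their values in each library, and "higher" and "lower" give the sign of a measured difference, not a call. Where values of a gene stand in pairs, those at 1 mg/kg come first, and 4 values are replicates 1 to 4 in order. Over all tested features the median log2 fold change was 0.0091, with 9040 higher and 8364 lower.

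Palmd encodes palmdelphin, a cytosolic protein related to the membrane-linked paralemmins, and lies on chromosome 2 of the rn6 build (220481616 to 220535751, minus strand). It was at 13.9, 14.4, 13.4 and 13.2 CPM in replicates 1 to 4 at 1 mg/kg and at 19.7, 20.6, 20.6 and 20.8 CPM at 3 mg/kg. The groups did not overlap, and the spread within each was small: 13.7 ± 0.538 against 20.4 ± 0.503 CPM (mean ± SD, n = 4). Vehicle libraries, at 15.02 to 17.4 CPM, filled the gap between the doses, and all 4 of them lay above every library at 1 mg/kg and below every library at 3 mg/kg. The log2 fold change between doses was 0.57 (95% interval 0.36 to 0.79; edgeR adjusted p = 0.109). It ran from 0.55 to 0.61 under the 18 alternative analyses.

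Syt12 encodes a synaptotagmin of synaptic vesicles and is on chromosome 1 (219688451 to 219719272, minus strand). Its 4 libraries at 3 mg/kg were almost equal, at 65.8, 65.6, 64.6 and 64.4 CPM, while those at 1 mg/kg were at 90.8, 93.8, 87.9 and 78.9 CPM. Vehicle was at 83.0, 80.1, 74.9 and 89.0 CPM, so that the 3 mg/kg libraries lay below both other groups and 1 mg/kg overlapped with vehicle. The log2 fold change between doses was -0.43 (95% interval -0.60 to -0.27; edgeR adjusted p = 0.109). Another synaptotagmin gene went the other way: Syt17 was at 139, 92.7, 91.5 and 119.5 CPM at 1 mg/kg and 140.2, 159, 164 and 144 CPM at 3 mg/kg, a log2 fold change of 0.46 (SE 0.118). Syt2, the calcium sensor for fast transmitter release, was lower at 3 mg/kg. It was at 6.61, 17.6, 25.6 and 23.3 CPM at 1 mg/kg and 6.68, 7.11, 3.75 and 4.36 CPM at 3 mg/kg. Its replicate 1 at 1 mg/kg lay inside the range of the higher dose.

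**Figure D1:**
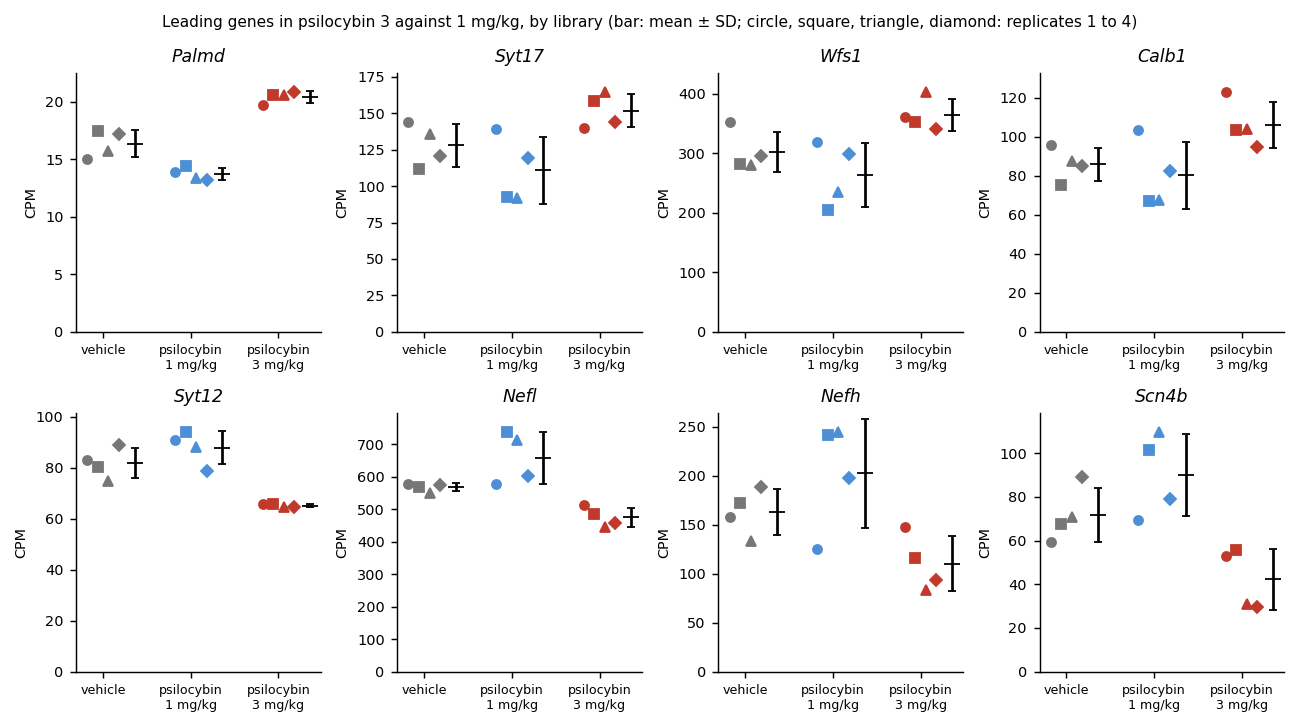
CPM of 8 genes (vertical axes, from 0) in each library of vehicle, psilocybin 1 mg/kg and psilocybin 3 mg/kg, with the mean ± SD of 4 libraries beside each group. Palmd, Syt17 and Wfs1 sit higher at 3 mg/kg than in all libraries at 1 mg/kg, Syt12, Nefl and Scn4b sit lower, and Calb1 and Nefh overlap through replicate 1 at 1 mg/kg.

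Neurofilament genes were lower at the higher dose. Nefl, Nefm and Nefh encode the light, medium and heavy subunits of the filament that supports the axons of large neurons. Nefl (chromosome 15, 44799334 to 44804574, plus strand) was at 576, 736, 714 and 603 CPM at 1 mg/kg and at 511, 484, 444 and 458 CPM at 3 mg/kg. Vehicle libraries were close together at 549.9 to 576 CPM, above all libraries at 3 mg/kg, and replicate 1 at 1 mg/kg lay at the vehicle level while the other 3 lay above it. The log2 fold change was -0.47 (95% interval -0.66 to -0.28; edgeR adjusted p = 0.169), and leaving out replicate 1 at 1 mg/kg gave -0.53 with an adjusted p of 0.0428.

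Nefm lies near Nefl on chromosome 15 (44855310 to 44860604, on the minus strand). It was at 227, 385, 354 and 258 CPM at 1 mg/kg and 219, 195, 159 and 182 CPM at 3 mg/kg, with no overlap and a log2 fold change of -0.70 (SE 0.187). Nefh, on chromosome 14, was at 126, 242, 244 and 198 CPM at 1 mg/kg and 148, 116, 83.2 and 94.0 CPM at 3 mg/kg, a difference of -0.88 (SE 0.206). Its groups overlapped, because replicate 1 at 1 mg/kg was lower than replicate 1 at 3 mg/kg. In FPKM, the authors' unit that scales for transcript length as well as depth, the 3 subunits kept one order: at 1 mg/kg Nefl was at 192 ± 23.2 FPKM, Nefm at 99.0 ± 24.4 and Nefh at 52.0 ± 14.3, and at 3 mg/kg they were at 138 ± 8.56, 61.1 ± 8.07 and 28.4 ± 7.30 FPKM (mean ± SD, n = 4). The difference in log2 units was larger for the medium and heavy subunits than for the light one, though the difference between subunits was not tested.

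The ion channels that let neurons fire fast were listed with them. Scn4b, a sodium channel subunit linked to rapid repetitive firing, had the largest difference of the list: 69.6, 102, 109.5 and 79.0 CPM at 1 mg/kg and 53.1, 55.6, 31.2 and 29.5 CPM at 3 mg/kg, a log2 fold change of -1.08 (SE 0.252). Vehicle was at 59.4 to 88.8 CPM, so the 3 mg/kg libraries lay below vehicle too. Scn1a, the sodium channel subunit of many inhibitory neurons, was at 40.6 to 59.5 against 28.9 to 37.5 CPM, and Kcnc1, a potassium channel of fast repolarisation, at 120.2 to 137 against 101 to 115 CPM. Neither overlapped between the doses. Pvalb, the calcium buffer that marks fast-spiking interneurons, was at 75.0, 132, 110.1 and 70.8 CPM and then 146, 70.7, 53.9 and 62.9 CPM, where replicate 1 at 3 mg/kg was the highest of all 8 libraries and the other 3 were at or below the lowest at 1 mg/kg.

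All 13 genes of this neurofilament and fast-firing list had a lower fitted level at 3 mg/kg, with log2 fold changes from -1.08 to -0.11 and a median of -0.44. Of them 6 had an unadjusted p under 0.05 (background 1.69%) and 5 had groups that did not overlap (background 1.25%), and 0 passed the adjusted test. The mean log2 CPM of the list, relative to vehicle, was -0.07, 0.20, 0.16 and 0.21 in the libraries at 1 mg/kg and -0.46, -0.27, -0.46 and -0.36 at 3 mg/kg. These ranges do not overlap. Vehicle libraries ran from -0.28 to 0.30 and so reached into the range at 3 mg/kg. The median ran from -0.53 to -0.37 when libraries were left out or settings changed. The number of members at an unadjusted p under 0.05 ran from 4 to 7. The share of all tested features at that p moved between these analyses too. The list and the others below were drawn up with earlier results of these data known, so the counts describe them and support nothing further. In tissue RNA, fewer cells of a type and less RNA per cell cannot be told apart.

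Genes of the perineuronal net, the matrix that surrounds fast-spiking interneurons, were mixed. Hapln4, a link protein of that net, was at 195, 355, 324 and 243 CPM at 1 mg/kg and 218, 191, 133 and 136 CPM at 3 mg/kg, a log2 fold change of -0.72 (SE 0.189; edgeR adjusted p = 0.794). The low value of replicate 1 at 1 mg/kg made the groups overlap, as for Nefh. The core proteins did not follow: Acan was at 0.10 (SE 0.373), Bcan at -0.0042 (SE 0.0889) and Ncan at 0.13 (SE 0.353). The matrix proteases Mmp9 (1.77 to 8.75 against 0.694 to 3.22 CPM) and Adamts4 (14.7 to 36.02 against 9.09 to 27.6 CPM) had unadjusted p values under 0.05 and overlapped. Of the 14 tested members 6 were higher and 8 lower, with a median of -0.04.

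Interneuron markers outside the fast-firing list differed little. Gad1, which makes GABA, was at 192 to 238 CPM at 1 mg/kg and 192 to 226 CPM at 3 mg/kg. Sst was at 280.3 to 495 and 322 to 549, and Vip at 46.8 to 58.4 and 45.1 to 65.9 CPM. Of the 15 markers 1 had an unadjusted p under 0.05 (background 1.69%). This was Lamp5, a marker of neurogliaform cells and of some pyramidal neurons, at 215, 360.5, 294 and 269 against 299.8, 212, 161 and 142 CPM (-0.48, SE 0.191). The list's median was -0.08. Calb2, the gene of calretinin, was the member with non-overlapping groups (background 1.36%), at 16.2 to 18.4 CPM at 1 mg/kg and higher, at 19.5 to 25.2 CPM, at 3 mg/kg.

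Myelin genes were lower at 3 mg/kg in the fitted means, with wide differences between animals of the same dose. Mbp, which compacts the sheath, was at 1679, 4406, 4885 and 2546 CPM at 1 mg/kg and 1990.0, 1390.0, 1182 and 3113 CPM at 3 mg/kg. Cldn11, the tight junction protein of the sheath, was at 117, 295, 291 and 185 CPM and then 151, 107, 98.8 and 185 CPM. In both genes replicate 1 at 1 mg/kg had a level like most libraries at 3 mg/kg, replicate 4 at 3 mg/kg had a level within the range at 1 mg/kg, and the groups overlapped. The log2 fold change was -0.82 (SE 0.373) for Mbp and -0.71 (SE 0.305) for Cldn11, each with an edgeR adjusted p of 1.00. Gjb1, a gap junction protein of oligodendrocytes, was at -0.99 (SE 0.386), Mobp at -0.82 (SE 0.364), Nipal4 at -0.74 (SE 0.322) and Car2, the oligodendrocyte carbonic anhydrase, at -0.48 (SE 0.203).

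Of the 35 tested myelin sheath and mature oligodendrocyte genes 34 were lower and 1 was higher (Il33, at 0.02), with a median of -0.50. Of these genes 7 had an unadjusted p under 0.05 (background 1.69%), 0 had groups without overlap (background 1.25%) and 0 passed the adjusted test. The members moved together from animal to animal. At 1 mg/kg replicate 1 was the lowest library for 31 of the 35 genes, and at 3 mg/kg replicate 4 was the highest for 27. The list's mean log2 CPM relative to vehicle was -0.47, 0.40, 0.58 and 0.0026 at 1 mg/kg and -0.39, -0.50, -0.67 and 0.17 at 3 mg/kg. The 4 vehicle libraries spanned -0.50 to 0.53, nearly as wide a range as at 1 mg/kg.

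The median of the myelin list and its count at an unadjusted p were recomputed with single libraries left out. With replicate 1 at 1 mg/kg left out the median was -0.68 and 20 members had an unadjusted p under 0.05, and without replicate 4 at 3 mg/kg it was -0.68 with 20. Leaving out replicate 3 at 1 mg/kg gave -0.30 with 0, leaving out replicate 3 at 3 mg/kg gave -0.41 with 0, and replicates 2 gave 2 at 1 mg/kg and 1 at 3 mg/kg. At least 33 of the 35 genes were lower in each of these fits. The share of all tested features at that p also moved between fits and is not set beside these counts. Nothing is read from the counts for that reason.

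Other lists of the oligodendrocyte lineage had smaller median differences. Among the transcription factors that drive the lineage 10 of 11 were lower, with a median of -0.35. Myrf, the factor that switches on myelin genes, was at 52.3, 84.0, 93.0 and 63.3 CPM and then 48.4, 48.8, 42.8 and 71.2 CPM (-0.47, SE 0.224), Olig2, present through the lineage, at 26.4, 38.7, 41.3 and 36.6 CPM and then 29.7, 27.5, 23.6 and 31.5 CPM (-0.35, SE 0.189), and Sox8 was the member that was higher (0.11, SE 0.164). Genes of newly formed oligodendrocytes were lower in 8 of 10 (median -0.21). Among them Enpp6, which marks cells that have just begun to differentiate, was at 2.16, 4.26, 6.26 and 2.81 CPM and then 2.13, 1.24, 1.53 and 2.59 CPM (-1.05, SE 0.365), and Casr, at 0.343 to 0.686 CPM at 1 mg/kg, was at 0 in 3 of 4 libraries at 3 mg/kg.

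Markers of oligodendrocyte precursors did not share the direction, with 8 of 12 higher and a median of 0.05. Pdgfra, the growth factor receptor of these cells, was at 36.3 to 57.6 and 39.7 to 52.5 CPM and Cspg4 at 25.4 to 30.8 and 27.1 to 30.6 CPM. Gpr37l1, also abundant in astrocytes, was the marker with an unadjusted p under 0.05 (background 1.69%), at 209 to 236 against 182 to 201 CPM. Its relative Gpr37, an oligodendrocyte receptor, was at 48.9, 68.6, 79.1 and 61.9 CPM and then 35.9, 38.3, 41.6 and 56.4 CPM (-0.59, SE 0.157). Enzymes of myelin lipid synthesis were lower in 11 of 12 with a median of -0.18. They were led by Ugt8, which makes galactosylceramide (29.6, 59.6, 79.1 and 44.8 against 26.8, 19.8, 22.1 and 44.0 CPM; -0.92, SE 0.301), and Fa2h, which hydroxylates its fatty acids (-0.68, SE 0.328). The 22 cholesterol synthesis genes had a median of -0.04.

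**Figure D2:**
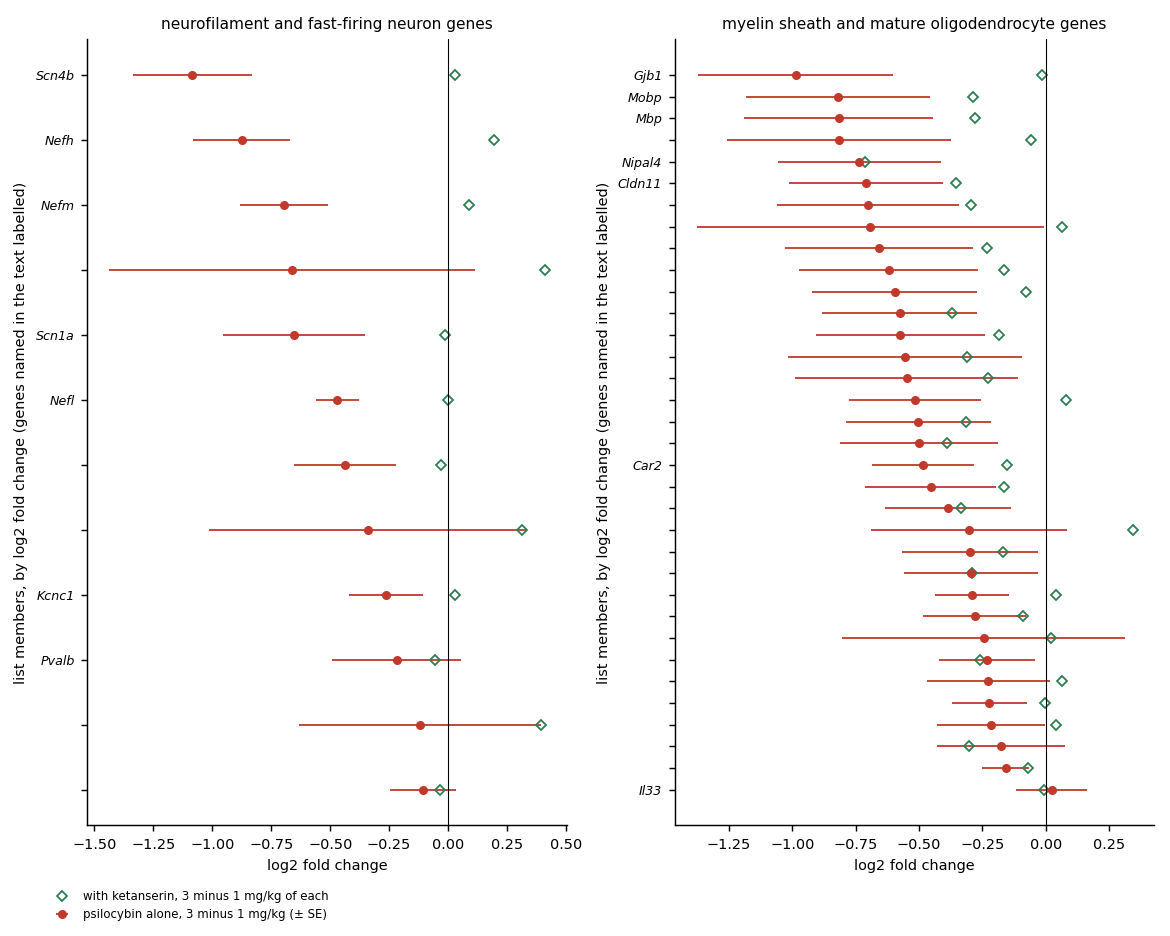
Log2 fold change of tested members of the neurofilament list (left) and the myelin list (right), leaving out 1 member of each that is not reported here. Filled points with bars are psilocybin alone, 3 minus 1 mg/kg, ± SE from the fit of 28 libraries, and open diamonds are the same dose difference where ketanserin was given at the dose of psilocybin. With psilocybin alone all points on the left and all but Il33 on the right lie below 0, and on the left the diamonds lie on both sides of 0.

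Of the secreted synaptic organizers, C1ql2 and Cbln2 were lower at 3 mg/kg. Cbln2, a cerebellin that bridges neurexins to postsynaptic receptors, was at 69.5, 96.1, 79.5 and 76.1 CPM at 1 mg/kg and 69.4, 62.5, 57.1 and 57.4 at 3 mg/kg (-0.38, SE 0.111), where the lowest library at 1 mg/kg and the highest at 3 mg/kg nearly touched. C1ql2, a C1q-like protein of glutamate synapses, was at 1.77, 20.3, 13.3 and 11.1 CPM and then 4.69, 4.23, 3.26 and 4.76 CPM (-1.45, SE 0.409). Replicates 2 to 4 at 1 mg/kg of C1ql2 lay above the vehicle range (4.46 to 6.17 CPM), replicate 1 lay below it, and the 3 mg/kg libraries lay within or just below it. Without replicate 1 at 1 mg/kg its log2 fold change was -1.81, with an edgeR adjusted p of 0.0325. C1ql3, of the same family, was the member that was higher (0.31, SE 0.332). Of the 6 members 5 were lower, with a median of -0.22, which was -0.37 without replicate 1 at 1 mg/kg, -0.10 without replicate 2 at that dose and -0.13 without replicate 3 at 3 mg/kg.

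Among the 15 lower genes with the smallest p were other neuronal genes. Galnt9, a glycosyltransferase of the brain, was at 211, 236, 219 and 189 CPM and then 167, 177, 144 and 156 CPM (-0.41, SE 0.0876; edgeR adjusted p = 0.402). Cadps2, which primes dense-core vesicles, was at 69.3 to 95.3 and 55.0 to 61.5 CPM (-0.51, SE 0.121), though its locus holds 2 other annotated genes, 5S_rRNA and Rnf148. Sema7a, a membrane-bound semaphorin, was at 266 to 359.9 and 189 to 273 CPM and overlapped. Olfm3, an olfactomedin, was at 43.0 to 59.5 and 30.7 to 37.2 CPM without overlap. Pamr1, Robo3, an axon guidance receptor, and Pcdhb4, a clustered protocadherin, were at -0.36, -1.29 and -1.12 on the log2 scale. Vamp1, the vesicle protein of fast-conducting neurons, was not among the 15 and was at -0.44 (SE 0.143). None of these had an edgeR adjusted p under 0.402.

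Genes that were higher at 3 mg/kg included markers of upper layer neurons. Wfs1, a membrane protein of the endoplasmic reticulum that marks superficial pyramidal cells, was at 318, 204, 234 and 299 CPM at 1 mg/kg and 362, 353, 402 and 341 CPM at 3 mg/kg, without overlap (0.47, SE 0.126; edgeR adjusted p = 0.794). Calb1, the calcium buffer calbindin, was at 104, 67.0, 67.8 and 82.2 CPM and then 123, 103, 104 and 94.8 CPM (0.41, SE 0.111), with replicate 1 at 1 mg/kg inside the range at 3 mg/kg. Without that library Calb1 was at 0.55, with an adjusted p of 0.0428. Rspo1, an activator of Wnt signalling listed with the same layers, went the other way, at 2.49, 7.69, 9.09 and 4.49 CPM and then 3.13, 0.959, 1.60 and 2.72 CPM (-1.502, SE 0.443).

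Over the 13 upper layer markers 10 were higher, with a median of 0.07. This was 0.26 without replicate 1 at 3 mg/kg, 0.13 without replicate 1 at 1 mg/kg and 0.03 without replicate 3 at 1 mg/kg. Of them 2 higher members and 1 lower member had an unadjusted p under 0.05 (background 1.55% and 1.69%). Cux2, the classical marker of these layers, varied within the doses, at 91.8, 38.6, 44.6 and 93.3 CPM and then 53.8, 90.1, 101 and 94.2 CPM. The 17 deep layer markers were lower in 11, with a median of -0.20 that ran from -0.19 to -0.08 as single libraries were left out, nearest to 0 without replicate 1 at 3 mg/kg. Tshz2, a zinc finger gene of deep layer neurons, had the largest difference among them (14.4, 36.8, 60.5 and 84.7 against 3.48, 19.4, 20.6 and 15.5 CPM; -1.73, SE 0.633) and ranged from 9.44 to 62.8 CPM within vehicle. Fezf2 overlapped between the doses (above), and Tbr1, of corticothalamic neurons, was at 62.0, 41.4, 59.8 and 60.9 CPM and then 18.6, 50.2, 56.5 and 68.8 CPM.

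The remaining genes that led in the higher direction had no shared role among the lists. Hpcal1, a neuronal calcium sensor, was at 46.6, 38.5, 41.9 and 42.6 CPM at 1 mg/kg and 77.7, 66.0, 79.2 and 65.9 CPM at 3 mg/kg, while vehicle was at 39.5 to 51.2 CPM, close to the lower dose (0.77, SE 0.237; edgeR adjusted p = 1.00). Adprhl1, a protein related to ADP-ribose hydrolases and known from heart, was at 4.71, 4.05, 3.16 and 3.31 CPM and then 9.80, 11.1, 12.3 and 16.9 CPM (1.71, SE 0.412). C2cd4c, a C2 domain protein, was at 27.5 to 40.9 and 43.5 to 49.4 CPM, without overlap.

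Ryr1, a calcium release channel, was at 0.72 (SE 0.196), and its replicate 1 at 3 mg/kg lay inside the range of the lower dose. Grik2, a kainate receptor subunit, was at 26.2 to 34.8 and 38.5 to 40.8 CPM (0.39, SE 0.117), and Gpc4, a glypican that astrocytes secrete to promote synapses, at 15.5 to 21.3 and 21.7 to 25.0 CPM (0.36, SE 0.108); neither overlapped. Mgam, Sbsn, Ppfibp1 and Sh3kbp1 were at 1.59, 0.64, 0.50 and 0.34. In 10 of the 15 leading higher genes (background 1.36%) and 11 of the 15 leading lower genes (background 1.25%) the groups did not overlap, and nothing is read from this, since the genes were picked for a small p in the same contrast. The vehicle mean lay between the 2 dose means in 12 of the higher and in 15 of the lower genes. Both doses are compared with the same 4 vehicle libraries in that count, and the genes had been selected for a difference between the doses.

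The largest fitted difference among the 15 leading higher genes rested on 1 animal. Grcc10, a small gene whose locus also holds an annotated U7 RNA, was at 0.995, 0.677, 0.0694 and 75.4 CPM at 3 mg/kg against 1.05, 0.893, 0.673 and 0.250 CPM at 1 mg/kg. The log2 fold change of 4.74 became -0.30 without replicate 4 at 3 mg/kg. Mrpl36 encodes a protein of the mitochondrial ribosome and has 2 records in the annotation. It had the largest difference among the 15 leading lower genes, at 7.01, 8.93, 1.41 and 6.36 CPM at 1 mg/kg, 0.497, 0.169, 0.694 and 0.408 CPM at 3 mg/kg and 0.206 to 0.947 CPM in vehicle. All 4 libraries at 1 mg/kg lay above all libraries of the other 2 groups, with a log2 fold change of -3.74 (SE 0.830; edgeR adjusted p = 0.452, DESeq2 adjusted p = 0.0185).

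Genes named in an earlier analysis for a difference of either dose from vehicle were also compared between the doses. Rmnd5b was at 12.8, 9.07, 5.45 and 6.61 CPM at 1 mg/kg and 0.853, 2.09, 5.55 and 6.12 CPM at 3 mg/kg; the doses overlapped, and vehicle was at 0.338 to 0.617 CPM. RragB, a GTPase of amino acid sensing, was at 3.01, 2.20, 8.08 and 7.17 CPM and then 6.46, 2.14, 9.16 and 7.76 CPM. Pla2g4e, a phospholipase, was at 15.9 to 18.5 and 17.6 to 23.9 CPM, Sh2b3, an adaptor of cytokine receptors, at 16.4 to 23.3 and 19.9 to 24.5 CPM, and Gmeb1 at 15.1 to 15.7 and 14.6 to 19.9 CPM, all 3 with overlap.

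Il17ra, a receptor for interleukin 17, was at 43.4, 34.1, 48.1 and 30.4 CPM at 1 mg/kg and 30.4, 24.7, 31.3 and 33.0 CPM at 3 mg/kg (-0.39, SE 0.146). For Epcam, known from epithelia as a cell adhesion protein, the values were 0.720, 2.27, 1.48 and 0.437 CPM and then 0.284, 0.452, 0.278 and 0.612 CPM (-1.56, SE 0.533). Fam111a, a protease gene, was at 43.7, 0.412, 0.337 and 0.686 CPM at 1 mg/kg and 15.8, 14.1, 30.8 and 18.5 CPM at 3 mg/kg; all libraries at the higher dose and 1 at the lower dose were above 10 CPM, and the groups overlapped because of that library.

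Serotonin receptor genes did not differ detectably between the doses. Htr2a was at 34.1, 27.5, 27.9 and 28.2 CPM at 1 mg/kg, 37.9, 31.8, 34.9 and 32.4 CPM at 3 mg/kg and 30.6, 34.9, 38.7 and 32.0 CPM in vehicle. The log2 fold change was 0.22 (95% interval -0.12 to 0.55; edgeR adjusted p = 1.00), and the groups overlapped through replicate 1 at 1 mg/kg. Htr2c was at 23.4, 21.3, 21.1 and 17.3 CPM and then 12.1, 19.8, 22.8 and 23.1 CPM (-0.10, 95% interval -0.61 to 0.42), and its locus contains several small RNA genes. Htr1a, the inhibitory receptor that psilocin also binds, was at 4.45, 1.10, 2.96 and 6.18 CPM and then 1.28, 3.84, 4.30 and 8.64 CPM (0.29, 95% interval -0.73 to 1.32). Htr2c was at 0.08 without replicate 1 at 3 mg/kg, and Htr1a at -0.22 without replicate 4 at 3 mg/kg and at -0.0088 without replicate 2 at 1 mg/kg.

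Htr3a, the ion channel subunit of a class of superficial interneurons, was the receptor gene with an unadjusted p under 0.05 (background 1.55%), at 10.5, 7.97, 7.54 and 8.61 CPM at 1 mg/kg and 9.23, 12.6, 14.9 and 14.2 CPM at 3 mg/kg (0.56, SE 0.251; edgeR adjusted p = 1.00). Replicates 2 to 4 at 3 mg/kg were above all libraries at 1 mg/kg, and replicate 1 was not. Per transcript length, among the receptor genes named here, Htr2a came first (6.30 ± 0.665 FPKM at 1 mg/kg and 7.34 ± 0.594 at 3 mg/kg). Htr3a (4.28 ± 0.652 and 6.30 ± 1.25) and Htr2c (4.67 ± 0.563 and 4.37 ± 1.15) came next and changed places between the doses. Htr1a (2.86 ± 1.68 and 3.52 ± 2.37) came last of those named, and the other receptor genes are not placed in this order. Of the 14 receptor genes listed 9 had enough counts to be tested, with 5 higher, 4 lower and a median of 0.19, which was -0.04 without replicate 4 at 3 mg/kg and -0.03 without replicate 2 at 1 mg/kg.

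Immediate early genes differed little between the doses in their median. Of 22 transcription factors of this class 9 were higher and 13 lower at 3 mg/kg, with a median of -0.01. Fos was at 13.2, 11.9, 11.6 and 8.42 CPM at 1 mg/kg and 10.4, 5.30, 14.2 and 5.99 CPM at 3 mg/kg, Egr1 at 172, 204, 156 and 129.5 CPM and then 157, 120.4, 142 and 126 CPM, and Npas4, which answers to calcium entry, at 21.9, 10.7, 15.8 and 11.4 CPM and then 10.4, 15.1, 10.8 and 10.6 CPM, all with overlap. Klf10 was the factor with an unadjusted p under 0.05 (background 1.55%), at 12.8 to 21.0 against 19.96 to 35.0 CPM (0.60, SE 0.233).

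The libraries at 1 mg/kg were close to each other in the mean of these factors, at 0.23, 0.26, 0.16 and 0.18 log2 units relative to vehicle, and those at 3 mg/kg spread more widely, at 0.36, -0.04, 0.17 and 0.11. Replicate 1 at 3 mg/kg was the highest of all 8 and replicate 2 the lowest. Against the same vehicle libraries the list's median difference was 0.22 at 1 mg/kg and 0.09 at 3 mg/kg. The 13 other immediate early genes had a median of 0.03, led by Arl4d, a small GTPase (29.5, 34.8, 28.4 and 28.4 against 60.7, 39.3, 33.5 and 34.4 CPM). The 19 late activity and neurotrophin genes had a median of 0.04; Ntf3, neurotrophin 3, was at 3.995, 1.58, 2.90 and 2.87 CPM and then 6.39, 3.22, 6.04 and 4.36 CPM (0.81, SE 0.309).

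Receptor and synapse genes stayed near the level of all features. AMPA receptor subunits and their auxiliary proteins had a median log2 fold change of 0.06 over 16 genes, NMDA receptor subunits 0.09 over 7, metabotropic glutamate receptors -0.01 over 7, GABA-A receptor subunits -0.09 over 13 and postsynaptic scaffold genes -0.0063 over 19. Only the AMPA receptor group among them held a gene with an unadjusted p under 0.05 (background 1.55% higher and 1.69% lower). This was Cnih3, which slows the closing of these receptors, at 14.4 to 18.7 against 19.5 to 23.0 CPM (0.37, SE 0.139), without overlap (background 1.36%). The 27 presynaptic and adhesion genes had a median of -0.02 and 3 members at an unadjusted p under 0.05 (background 1.69%), Syt2, Vamp1 and Cplx1, all lower. Cplx1, a complexin of inhibitory and fast synapses, was at 789, 1189, 1051 and 790.2 CPM and then 987, 717, 593 and 627 CPM, where replicate 1 at 3 mg/kg was again the exception.

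**Figure D3:**
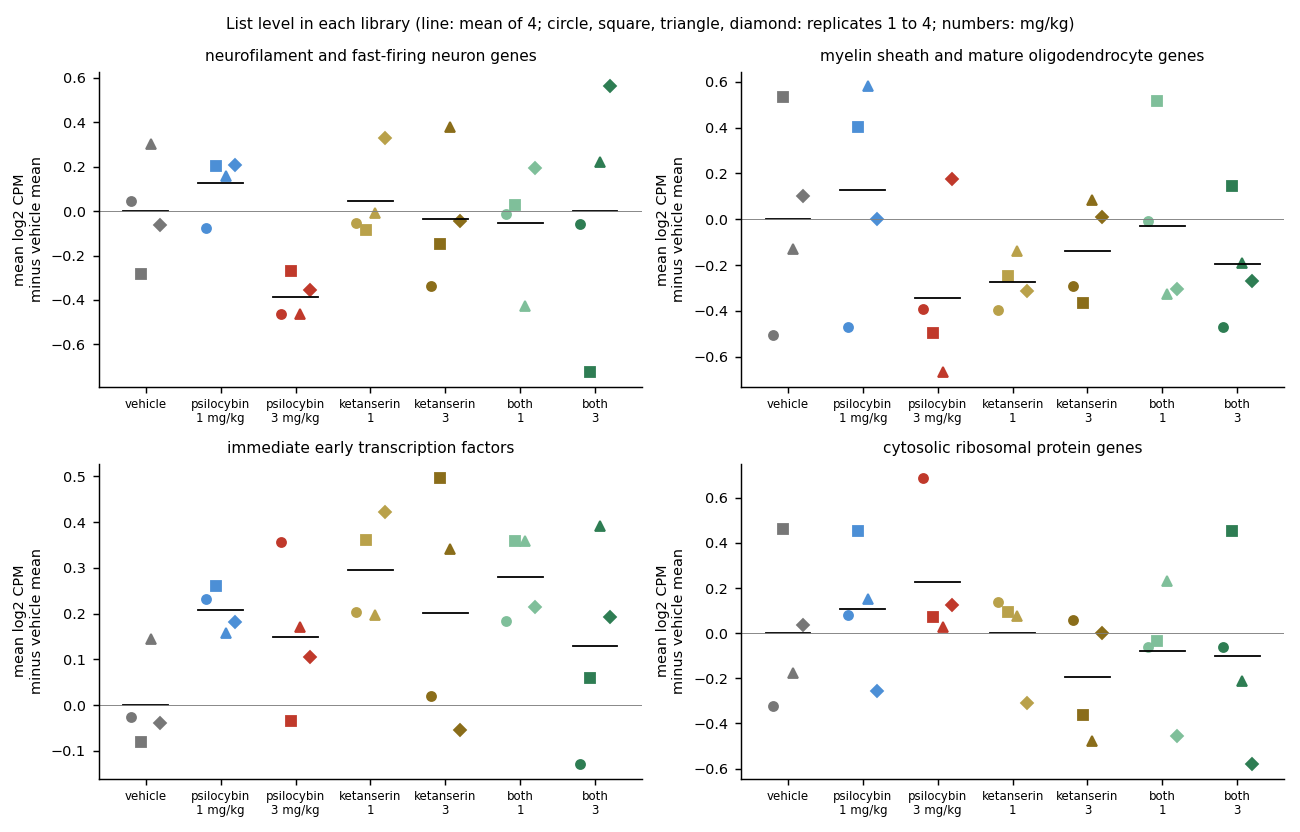
Mean log2 CPM of 4 gene lists in each of the 28 libraries relative to the vehicle mean (vertical axes), with 1 column per group and a line at the mean of 4 libraries. The neurofilament list sits lower in all libraries at the higher psilocybin dose than at the lower one, the myelin list overlaps widely, and the ribosomal list is high in 1 library at 3 mg/kg.

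Genes of protein synthesis and respiration were higher at 3 mg/kg in the fitted means, and the direction depended on single libraries. Of 75 cytosolic ribosomal protein genes 65 were higher, with a median of 0.15, and 0 had an unadjusted p under 0.05 (background 1.55% higher and 1.69% lower). Relative to vehicle the list was at 0.08, 0.45, 0.15 and -0.25 at 1 mg/kg and at 0.69, 0.07, 0.03 and 0.12 at 3 mg/kg, so that replicate 1 at 3 mg/kg stood above the other 7 libraries. Without it the median was -0.04 and 49 members were lower. Nuclear genes of mitochondrial respiration went from 0.05 (54 of 76 higher) to -0.13 (8 higher) without that library and to -0.06 without replicate 4 at 1 mg/kg. For mitochondrial ribosomal protein genes the median was 0.06, with -0.04 without replicate 4 at 1 mg/kg and -0.08 without replicate 1 at 3 mg/kg. The latter library also had the lowest TMM scaling factor of the 8, 0.904, and a Spearman correlation of -0.32 between the length of a gene and its difference from the mean of the libraries, against -0.26 to 0.19 in the other 7. The part of these features in the result was not tested.

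For the neurofilament list the same library did not set the direction. Without replicate 1 at 3 mg/kg its median was -0.50, with 12 of 13 genes lower. Without both replicate 1 at 3 mg/kg and replicate 2 at 1 mg/kg, the libraries with the highest mitochondrial shares, it was -0.45 with 13 of 13 lower and 6 at an unadjusted p under 0.05. The myelin list was then at -0.33 with 34 of 35 lower and 1 at that p. The share of all tested features at that p in this fit is not set beside these counts. Transcripts of the mitochondrial genome had a median of -0.10 over 24 features in the fit of all libraries and of 0.04 without replicate 2 at 1 mg/kg, and Mt-nd4, a subunit of complex I whose locus overlaps Mt-nd4l, was at 629.6, 985, 765 and 511 CPM and then 371, 649, 262 and 422 CPM (-0.76, SE 0.263).

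Markers of other cell types gave the following values beside these lists. Astrocyte markers had a median log2 fold change of -0.04 over 18 genes, with Agt, angiotensinogen, at 80.5, 138, 113 and 126 CPM and then 93.0, 62.6, 66.4 and 107 CPM (-0.47, SE 0.186). Endothelial and mural markers had a median of 0.03 over 19 genes. Microglia and complement C1q genes were higher in 13 of 17, with a median of 0.19 that was 0.05 without replicate 1 at 3 mg/kg. Blood genes were higher in all 8 tested (median 0.25, and 0.08 to 0.41 with single libraries left out, lowest without replicate 3 at 1 mg/kg), with list means from -0.49 to 0.40 after the lower dose and from -0.60 to 0.86 after the higher, which overlapped.

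Choroid plexus RNA differed between animals. Ttr, the thyroxine carrier that choroid plexus makes in quantity, was at 0.393, 9.69, 15.3 and 3.06 CPM at 1 mg/kg and 0.0710, 0.903, 0.347 and 0.612 CPM at 3 mg/kg, and the 5 tested markers of choroid plexus and ependyma had a median of 0.34. Of these 5 markers 3 were higher and 2 lower at 3 mg/kg. At an unadjusted p under 0.05 in edgeR 1 was higher (background 1.55%) and 1 lower (background 1.69%). Groups without overlap were found in 1 marker, which was higher (background 1.36%). Meninges and fibroblast markers were at -0.10 over 16 genes and at 0.06 without replicate 4 at 1 mg/kg, striatum markers at 0.0033 over 13, and olfactory bulb and neuroblast markers at 0.16 over 11 (0.03 to 0.38 with single libraries left out, lowest without replicate 1 at 1 mg/kg). The summed level of the striatum markers was 590.0 to 684 CPM at 1 mg/kg and 547 to 583 CPM at 3 mg/kg, without overlap. Their part in the differences of the neuronal lists was not tested.

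**Figure D4:**
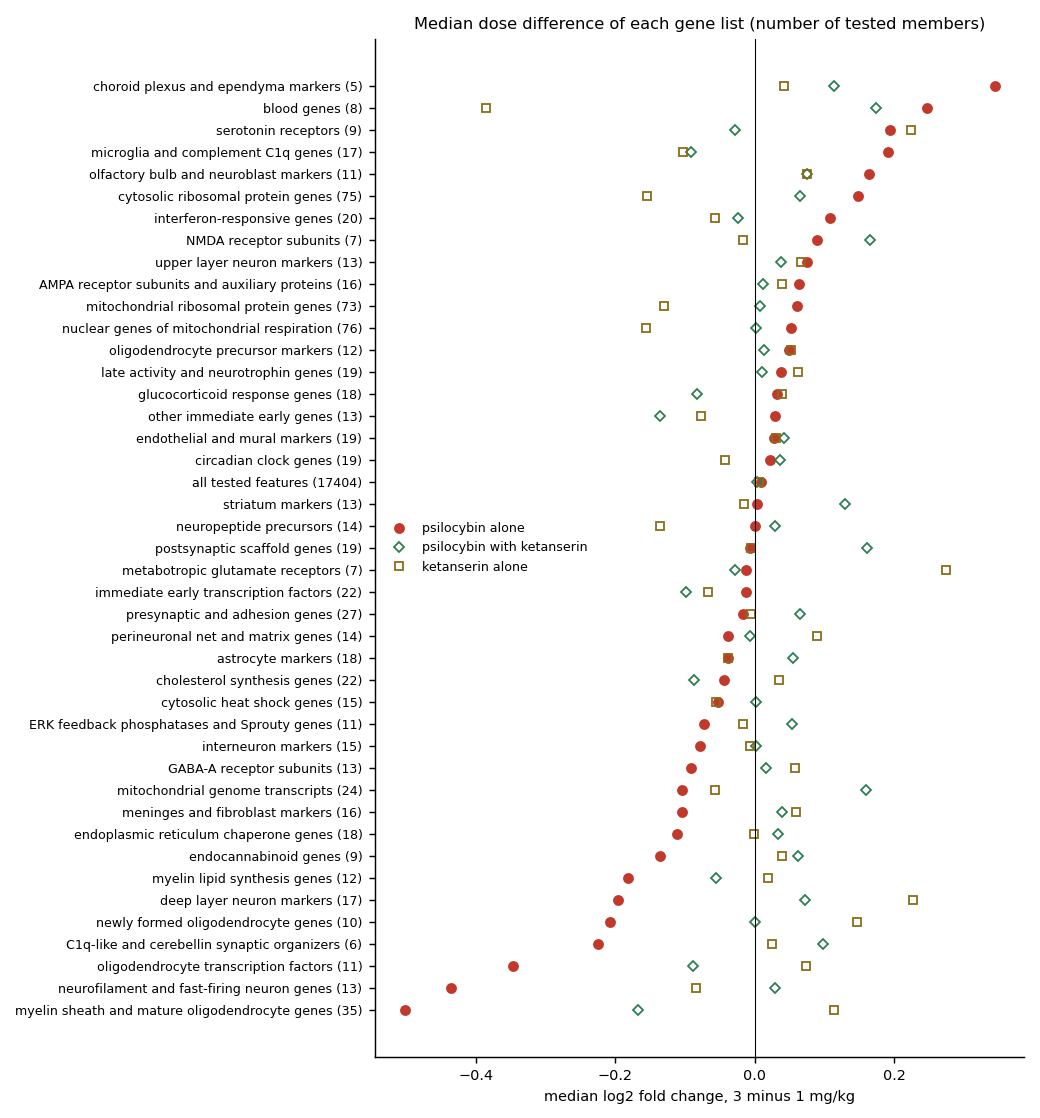
Median log2 fold change, 3 minus 1 mg/kg, of 42 gene lists and of all tested features (1 line each, with the number of tested members), for psilocybin alone (filled circles), psilocybin with ketanserin (open diamonds) and ketanserin alone (open squares). The myelin list (-0.50) and the neurofilament list (-0.44) lie farthest below 0 with psilocybin alone, and the diamonds of both lie closer to 0.

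The dose difference was then set against that of the animals that had ketanserin as well, which share no library with it. In the combined groups the dose of both drugs moved, so the contrast compares 3 mg/kg of each with 1 mg/kg of each. No feature had an adjusted p under 0.05 for the difference between the dose differences (0%; smallest adjusted p 1.00), and 521 (2.99%) had an unadjusted p under 0.05. The median half-width of the 95% interval of this contrast was 0.620 log2 units over the 15477 features whose log2 CPM averaged 0 or more, against 0.438 for the dose difference itself.

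Several genes that led with psilocybin alone had group means within their spread of each other in the combined groups, while Grcc10 (-2.06) and Adprhl1 (-0.61), higher at 3 mg/kg with psilocybin alone, had log2 fold changes below 0 there. Palmd was at 15.3 ± 1.44 CPM at 1 mg/kg of each drug and 16.6 ± 2.01 at 3 mg/kg of each (mean ± SD, n = 4), giving a log2 fold change of 0.12 where psilocybin alone gave 0.57. Syt12 was at 74.6 ± 7.58 and 76.2 ± 3.25 CPM (0.03). Nefl was at 542 ± 33.9 and 542 ± 63.2 CPM, Nefm at 242 ± 20.2 and 257 ± 68.3, Nefh at 127 ± 8.02 and 146 ± 34.2, and Scn4b at 62.9 ± 10.2 and 64.1 ± 17.8 CPM. The difference between the dose differences was 0.47 for Nefl (95% interval 0.20 to 0.74), 1.07 for Nefh (0.47 to 1.67) and -0.46 for Palmd (-0.76 to -0.16), each with an edgeR adjusted p of 1.00. Nefl, Nefh and Palmd were picked for a small p in the psilocybin dose difference, which is part of this contrast. Their estimates and intervals, here and with a library left out below, are therefore biased towards a larger size.

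Of the 15 leading higher genes 8 were also higher at the higher dose in the combined groups, with a median of 0.0098, and of the 15 leading lower genes 8 were also lower, with a median of -0.0004. At an unadjusted p under 0.05 the difference between the dose differences was counted in 12 of the higher and 14 of the lower genes. These genes were picked for a small p in the psilocybin dose difference, which is part of that contrast, so such counts are biased upwards. The neurofilament list had a median of 0.03 in the combined groups, with 5 of 13 genes lower, and its mean relative to vehicle was -0.01, 0.03, -0.43 and 0.19 in the 4 libraries at the lower doses and -0.06, -0.73, 0.22 and 0.56 in those at the higher doses. Replicate 4 of the latter group had the highest value and also stood far from the other 27 libraries over all genes, with 4.46% of its counts in unnamed transcripts. Without that library the list's median was -0.07, with 10 of 13 lower, and the difference between the dose differences was 0.44 for Nefl, 0.91 for Nefh and -0.39 for Palmd. The myelin list in the combined groups had a median of -0.17, with 28 of 35 lower, and of -0.13 without that library.

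Ketanserin alone, at 3 against 1 mg/kg, served as a dose difference with no psilocybin. The difference between the 2 dose differences passed an adjusted p of 0.05 in 0 features (0%; smallest adjusted p 0.539), and 370 (2.13%) had an unadjusted p under 0.05. With ketanserin alone the log2 fold change was 0.09 for Palmd, -0.06 for Syt12, 0.06 for Nefl, -0.10 for Nefm and -0.30 for Scn4b. Wfs1 was at 0.00073 and Calb1 at 0.07. Of the leading genes 13 of 15 higher and 12 of 15 lower ones had the same sign with ketanserin alone, at medians of 0.096 and -0.086 and with values of -0.61 to 0.48 and -0.30 to 0.70. The sizes with psilocybin alone are not set against these, because the genes were picked for them. With ketanserin alone the neurofilament list was at -0.08, with 10 of 13 genes lower, and the myelin list at 0.11, with 26 of 35 higher.

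**Figure D5:**
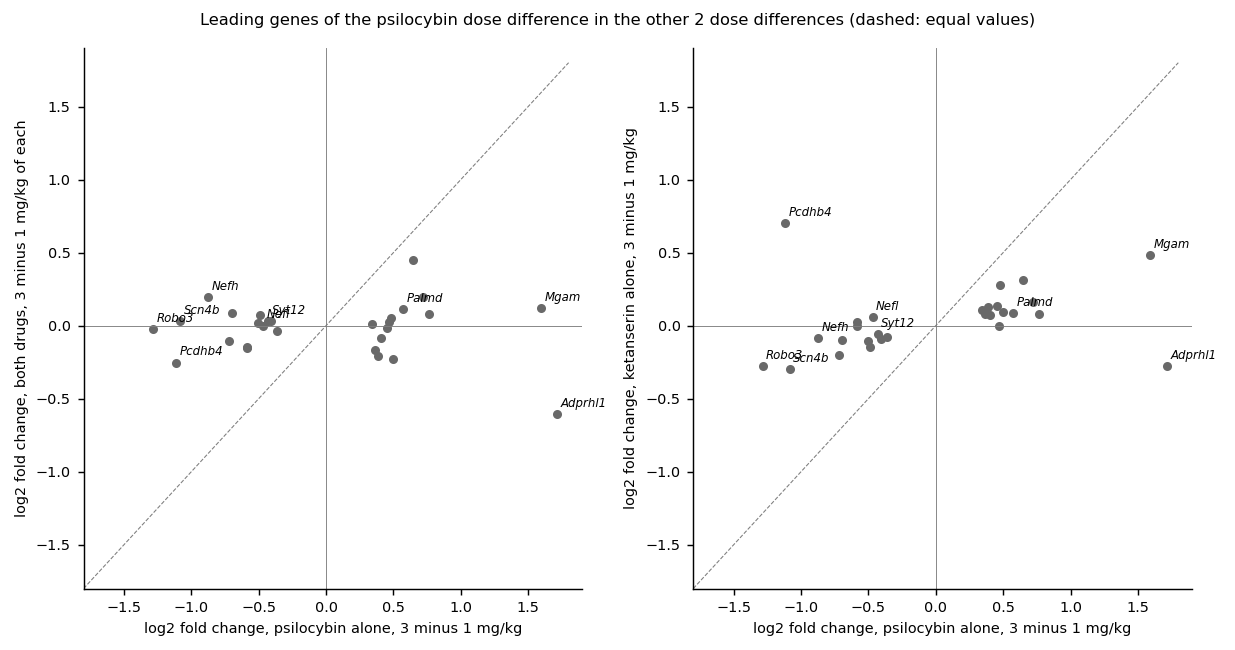
Log2 fold change with psilocybin alone, 3 minus 1 mg/kg (horizontal axes), of the leading genes in each direction, against the dose difference with both drugs (left) and with ketanserin alone (right). Grcc10 and Mrpl36 lie outside the plotted range and are not drawn. Most points lie near 0 on the vertical axes. The genes were picked for a small p in the horizontal contrast. Nothing is read from their distance to the dashed line of equal values.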

How the data were processed

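RNA of 28 prefrontal cortex libraries was analysed, 4 in each of 7 groups named from the treatment labels. The authors deposited raw read counts for 36387 annotated genes and assembled transcripts, and FPKM values for the same genes, per the file headers. Of the authors' tools the submitters' processing notes list featureCounts 1.5.0-p3, HISAT2 2.0.5 and StringTie 1.3.3b, with rn6 as the build. Libraries were strand-marked per the labels' protocols. Whether counting used strand is not given here in any source, so reads of overlapping genes and of symbols with several records may be divided or lost.

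The deposited counts went into edgeR 4.0.16 (R 4.3.3): filterByExpr by group (17404 features kept), TMM factors, 1 coefficient per group over all 28 libraries with 21 residual degrees of freedom, the robust quasi-likelihood F test (two-sided), and Benjamini-Hochberg adjustment over all tested features. Contrasts, 3 in all, were psilocybin 3 against 1 mg/kg, and that difference against the same difference with ketanserin added or with ketanserin alone. CPM is edgeR's scaling of a count by the TMM-adjusted library size. Levels are compared between genes only in the deposited FPKM, whose implied library size was 0.915 to 1.07 times the total count. Unnamed assembled transcripts, 3842 in number, held 2.00 to 2.39% of each of the 8 libraries and stayed in totals and tests.

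Total counts of the 8 libraries had a median of 15466516. On simulated counts with these means and library sizes the test found 26.9% of the 1.5-fold changes put in, 55.2% of the 2-fold and 76.6% of the 4-fold ones in psilocybin 3 against 1 mg/kg, with 5 false calls among 17192 features tested. The simulation drew each gene independently, so it held none of the variation that genes share between libraries. These rates may not hold for the real counts. Alternatives were RLE and upper-quartile factors, other filters, no robust option, each psilocybin library left out, a distant library of the combined 3 mg/kg group left out, a fit of only the groups in the contrast, the 2 psilocybin libraries of highest mitochondrial share left out (added after seeing the data), limma 3.58.1 (voom) and DESeq2 1.42.0.

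Named genes were the 15 with the smallest p in each direction among symbols with a mean of at least 1 CPM over the 8 libraries, up to 6 members of each of 42 lists with an unadjusted p under 0.05 (otherwise the 1 with the smallest p), Htr2a, Htr2c and Htr1a, and 12 genes named earlier for psilocybin against vehicle; other list members named in the text were chosen after their values were seen. A few genes are not reported here by name. The groups compared, the gene lists and these rules were chosen with earlier results of these data known. List means are means of log2 CPM with a prior count of 2, minus the vehicle mean.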

Additional observations from a re-analysis of the deposited data

Results flagged for a closer look

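In a group of 4, the gap of a library to the nearest of the other 3 was divided by the range of the 4. The library was marked where this ratio exceeded the 95% critical value of Dixon's test for 4 samples. This was checked in 278 sets of 4 libraries, each a gene or a list at 1 dose, and marked 14, which is about 1 in 20. The test's own rate of 1 in 20 holds for independent, normally distributed sets, which these are not shown to be. Of these 9 were genes and 5 were lists.

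At 3 mg/kg, Grcc10 was at 75.4 CPM in replicate 4 against 0.0694 to 0.995 in the others, Casr at 0.0680 and Ifit1 at 0.136 CPM in replicate 4 against 0 in the others, Lum, a fibroblast proteoglycan, at 5.04 CPM in replicate 1 against 3.20 to 3.40, and Atp5sl, a mitochondrial assembly gene, at 77.5 CPM in replicate 1 against 65.5 to 67.3. At 1 mg/kg, Htr2a was at 34.1 CPM in replicate 1 against 27.5 to 28.2, Fam111a at 43.7 CPM in replicate 1 against 0.337 to 0.686, Fau, a ribosomal protein gene, at 4.24 CPM in replicate 3 against 1.79 to 2.16, and Grin2c, an NMDA receptor subunit, at 157 CPM in replicate 4 against 143 to 144.5.

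Of the list means relative to vehicle, the myelin lipid synthesis genes were at 0.0466 in replicate 4 at 3 mg/kg against -0.36 to -0.32 in the others. At 3 mg/kg replicate 1 stood apart with 0.69 for the cytosolic ribosomal protein genes (others 0.03 to 0.12), 0.53 for the mitochondrial ribosomal protein genes (others -0.03 to 0.03) and 0.34 for the cytosolic heat shock genes (others -0.03 to -0.02). At 1 mg/kg replicate 4 was at -0.0294 for the heat shock genes against 0.17 to 0.20. Replicate 1 at 3 mg/kg held 5 of the 14 and replicate 4 at that dose held 4.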

How the results depend on the processing

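The number of features with an adjusted p under 0.05 between the doses was 0 in 16 of the 18 alternatives and 4 with DESeq2; over the fits that left out 1 psilocybin library it ran from 0 to 4, the 4 being found without psilocybin 1 mg/kg replicate 1 (C1ql2, Calb1, Nefl and a feature with no gene name). Both contrasts with the other drug groups stayed at 0 wherever they were computed. Features at an unadjusted p under 0.05 between the doses numbered 394 (without replicate 3 at 1 mg/kg) to 837 (with no filter on low counts), against 270 higher and 294 lower ones as reported. The fit with no filter tested more features than the 17404 of the reported fit, so these counts are not on 1 scale. Of 1740 recomputed values of the 97 named genes, 1735 kept their sign, and 7 passed the adjusted threshold where the reported one had not. Many of these genes were named for a small p in this same contrast. The alternatives also reused all or most of the same libraries, so kept signs are no independent support. Left-out libraries gave Grcc10 from -0.30 to 5.15, Htr1a from -0.22 to 0.67 and Htr2c from -0.19 to 0.0765. Reversed values were Grcc10 at -0.30 (without replicate 4 at 3 mg/kg), Htr1a at -0.0088 and -0.22 (without replicate 2 at 1 mg/kg or replicate 4 at 3 mg/kg), and Htr2c at 0.0765 (without replicate 1 at 3 mg/kg) and 0.0849 (without the 2 libraries of highest mitochondrial share, an alternative chosen after seeing the data); the cause was not tested. Of the 42 list medians 22 kept their sign in 17 alternatives, the neurofilament and myelin lists among them, and the other 20 changed it at least once. No paired analysis was possible because the labels number no replicates.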

Other observations

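Several gene groups outside the lists above had small median differences between the doses. Endoplasmic reticulum chaperone genes, which fold secreted and membrane proteins, were lower after the higher dose in 15 of 18 cases. Their median log2 fold change was -0.11, with 0 members at an unadjusted p under 0.05 in edgeR (background 1.55% higher and 1.69% lower). The member with the smallest p was Hyou1, at 175, 163, 159 and 160.3 CPM at 1 mg/kg and 128, 155, 150.5 and 159 CPM at 3 mg/kg. Cytosolic heat shock genes were at a median of -0.05 over 15 members, with Chordc1, a partner of the chaperone Hsp90, at 33.3 to 43.0 against 26.3 to 34.7 CPM. Endocannabinoid genes were lower in 7 of 9, with a median of -0.14; Daglb, which makes the ligand 2-arachidonoylglycerol, was at 29.99 to 32.9 and 26.4 to 29.1 CPM.

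Circadian clock genes had a median of 0.02 over 19 members, and Arntl, the core activator of the clock, was at 40.3 to 52.0 and 35.0 to 44.8 CPM. Glucocorticoid response genes had a median of 0.03 over 18; Tsc22d3, a direct target of the glucocorticoid receptor with 2 records in the annotation, was at 47.9, 67.0, 55.9 and 49.9 CPM at 1 mg/kg and 49.0, 52.5, 45.4 and 39.3 CPM at 3 mg/kg. Genes of negative feedback on ERK signalling had a median of -0.07 over 11, interferon-responsive genes 0.11 over 20 and neuropeptide precursors 0.0001 over 14. Among the neuropeptides Penk, the enkephalin precursor, was at 65.9, 121, 92.6 and 94.3 CPM at 1 mg/kg and 73.0, 69.6, 65.4 and 75.5 CPM at 3 mg/kg (-0.40, SE 0.190), and Nts, neurotensin, at 1.24, 5.01, 4.24 and 2.31 CPM at 1 mg/kg and 1.21, 0.677, 1.18 and 1.43 CPM at 3 mg/kg (-1.51, SE 0.580). None of the genes in these groups had an edgeR adjusted p under 0.05.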
